A study of Mus musculus with 16 samples.

Results

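Among wild-type mice with a narrowed aorta, the ventricular myocytes of some animals held far more RNA of the 2 classical genes of hypertrophy, Nppa and Myh7, than those of others, and the genes that varied with them are described here. The 8 wild-type (WT) animals of the series were chosen by genotype and ordered by a load index, the mean of log2(CPM + 1) of Nppa and Myh7, so the order was selected on the measured levels of these genes. CPM are counts relative to the library total after TMM scaling. They are 8 of 16 animals in all. The other 8 carried B3AR-Tg, a transgene for the beta-3 adrenergic receptor; the promoter that drives it is not given in the sources used here. Every animal of both genotypes had been through TAC surgery (transverse aortic constriction), in which a band narrows the aorta so that the ventricle pumps against raised pressure, 9 weeks before collection, and no animal without the surgery was analysed here. Ages were not given in the labels. Adult ventricular myocytes (AVM) were freed by Langendorff perfusion of the heart and plated for 1 hour before RNA was taken, and each library is labelled as a biological replicate of its own. Reads were from total RNA depleted of ribosomal RNA. The animals were ordered by a measured value and not by a label, so every relation below is an association over these 8 animals, and the index is not a measure of pressure or of heart size.

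When the left ventricle pumps against raised pressure, its myocytes thicken and return to part of the fetal gene programme. Nppa encodes atrial natriuretic peptide, a hormone that lowers blood volume and pressure and is nearly silent in the healthy adult ventricle; Myh7 encodes the slow beta myosin heavy chain, which Myh6, the fast alpha chain, outweighs in the adult mouse. The same stress is known to raise proteins of the stretched Z-disc and titin, secreted factors and extracellular matrix, and to lower the genes of fatty acid oxidation and mitochondrial respiration on which the adult heart runs.

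The promoters of both index genes and of 4 genes that moved with them are shown because the results turn on these transcripts moving together: Tgfb2, Postn and Ankrd1 rose with the index and Hopx fell. Each run is the 250 bases before the start site from RefSeq on GRCm38.p6, read 5′ to 3′ along the gene. Nppa is at chr4:148000472-148000721 on the plus strand, Myh7 at chr14:54994627-54994876 on the minus strand, Tgfb2 at chr1:186705990-186706239 on the minus strand, Postn at chr3:54360857-54361106 on the plus strand, Ankrd1 at chr19:36119845-36120094 on the minus strand and Hopx at chr5:77115124-77115373 on the minus strand. Capitals mark exact matches, on either strand, to the letters TATAAA of the TATA box, to CATTCC of the MCAT element, to the GATA sites AGATAA and also TGATAA, to the AP-1 site TGANTCA, and to the CArG box of serum response factor.
Nppa: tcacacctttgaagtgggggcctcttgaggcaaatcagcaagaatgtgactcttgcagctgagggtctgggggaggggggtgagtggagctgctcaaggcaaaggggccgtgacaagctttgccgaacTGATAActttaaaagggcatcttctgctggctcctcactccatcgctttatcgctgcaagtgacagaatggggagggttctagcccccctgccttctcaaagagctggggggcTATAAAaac
Myh7: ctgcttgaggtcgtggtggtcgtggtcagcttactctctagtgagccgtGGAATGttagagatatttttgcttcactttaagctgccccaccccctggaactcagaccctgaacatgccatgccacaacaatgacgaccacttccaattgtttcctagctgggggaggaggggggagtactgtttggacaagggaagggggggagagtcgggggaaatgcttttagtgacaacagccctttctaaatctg
Tgfb2: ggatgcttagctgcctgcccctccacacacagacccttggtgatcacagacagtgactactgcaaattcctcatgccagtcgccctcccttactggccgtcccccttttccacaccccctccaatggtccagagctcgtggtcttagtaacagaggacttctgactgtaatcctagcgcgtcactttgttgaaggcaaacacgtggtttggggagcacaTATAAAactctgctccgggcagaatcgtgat
Postn: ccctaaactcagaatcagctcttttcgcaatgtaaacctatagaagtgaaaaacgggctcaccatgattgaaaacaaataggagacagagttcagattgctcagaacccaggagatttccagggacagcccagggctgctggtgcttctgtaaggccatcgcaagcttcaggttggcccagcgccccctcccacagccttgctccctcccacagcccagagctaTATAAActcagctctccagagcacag
Ankrd1: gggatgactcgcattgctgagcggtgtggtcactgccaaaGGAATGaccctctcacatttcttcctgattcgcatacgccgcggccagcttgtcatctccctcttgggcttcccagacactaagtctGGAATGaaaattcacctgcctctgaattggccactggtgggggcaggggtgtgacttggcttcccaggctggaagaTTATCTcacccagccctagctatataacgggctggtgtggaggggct
Hopx: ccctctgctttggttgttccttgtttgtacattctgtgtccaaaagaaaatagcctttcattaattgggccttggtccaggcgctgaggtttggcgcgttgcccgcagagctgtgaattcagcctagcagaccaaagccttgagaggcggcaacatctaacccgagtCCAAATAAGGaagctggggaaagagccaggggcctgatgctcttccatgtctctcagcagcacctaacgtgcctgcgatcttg
Nppa held a TATAAA and a TGATAA, Myh7 a CATTCC read on the opposite strand, Ankrd1 a pair of such CATTCC matches and an AGATAA on the opposite strand, and Hopx a CArG box. Tgfb2 and Postn each held a TATAAA. The letters of the AP-1 site were in none of these 6 windows.

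Over windows of 300 bases (250 before and 50 after the start), the AP-1 letters TGANTCA were found for 18 of the 168 genes rising with the index that matched a promoter by symbol (10.7%), against 4.45% of the 8584 tested genes that matched and 7.93% of all 27025 promoters. CATTCC was found for 12.5% of the rising genes and 11.9% of the tested genes, and the CArG box for 2.38% and 1.34%. TATAAA was found for 9.52% and 7.07%, AGATAA for 4.76% and 6.03%, and TGATAA for 4.76% and 4%. Of the falling genes 53 of 75 matched. Among these 5.66% held TGANTCA, 9.43% CATTCC, 9.43% AGATAA, 7.55% TATAAA, 3.77% TGATAA and 3.77% the CArG box. These letter matches are descriptions, not binding sites, and their shares were not tested.

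Nppa was at 1203, 1313 and 1042 CPM in replicates 2, 8 and 4, at 320.5 CPM in replicate 1, and at 192.2, 105.1, 120.1 and 76.2 CPM in replicates 7, 3, 5 and 6. Myh7 was at 5193, 4156 and 5161 CPM in replicates 2, 8 and 4, at 1222 CPM in replicate 1, and at 897, 1366, 919 and 774 CPM in replicates 7, 3, 5 and 6. Both genes were therefore far higher in the same 3 animals, and the highest animal exceeded the lowest 17.2-fold for Nppa and 6.71-fold for Myh7. Because these values set the order, they are given as a description with no test.

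The index was 11.29, 11.19 and 11.18 in replicates 2, 8 and 4 and 9.29, 8.70, 8.57, 8.38 and 7.93 in replicates 1, 7, 3, 5 and 6. The name load gradient describes these values only in part: a gap of 1.89, which is 56.3% of the whole range of 3.35, lay between 3 animals and the other 5. A split into the 4 highest and 4 lowest animals fell inside the lower cluster, with replicate 1 at 9.29 just inside and replicate 7 at 8.70 just outside. No correlation over the 8 animals is given, since they formed clusters. Values are instead given by animal, first for replicates 2, 8 and 4 (above the gap) and then for replicates 1, 7, 3, 5 and 6 (below it). In B3AR-Tg, with the same index, the animals ran from 5.89 to 8.54. There 1 animal, replicate 7 at 8.54, stood apart by a gap of 1.30 (49.0% of the range) from the next at 7.24. On scaling over all 16 libraries the WT animals ran from 7.96 to 11.32 and the B3AR-Tg animals from 5.87 to 8.51.

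**Figure D1:**
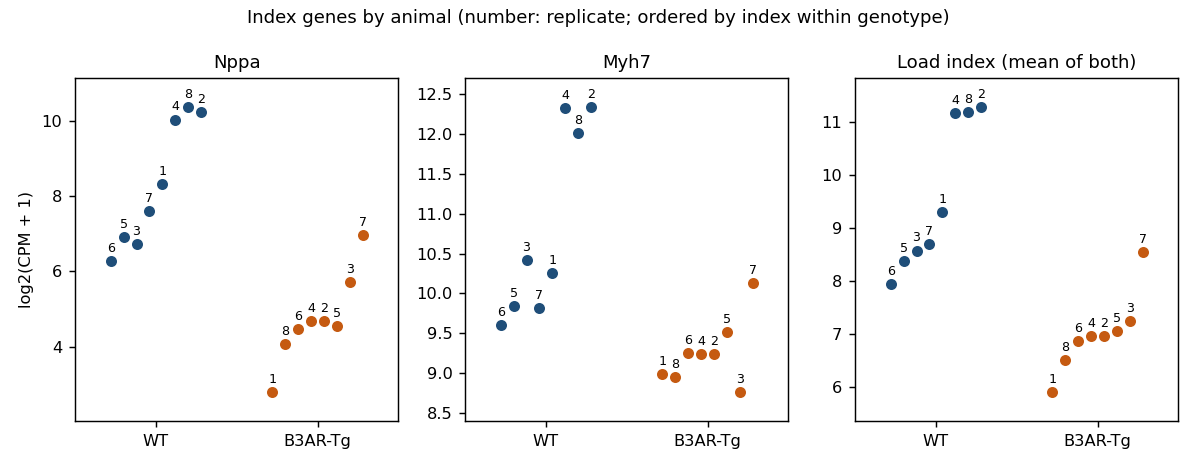
Nppa, Myh7 and their mean, the load index, as log2(CPM + 1) in each of 8 WT (blue) and 8 B3AR-Tg (orange) animals, with CPM scaled within each genotype; each point is 1 animal and its number is the replicate. WT replicates 2, 8 and 4 sit between 11.18 and 11.29 on the index, and the next WT animal is at 9.29.

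The libraries above and below the gap also differed in depth and content. Totals were 9951739 to 11584656 counts above the gap and 6926821 to 9094181 below it, and the mitochondrially encoded share of counts was 18.8 to 21.3% against 21.8 to 27.5%, so neither measure overlapped. Genes detected numbered 14743 to 14965 above and 14070 to 14651 below, and the single gene Gm20594 took 13.0 to 15.4% and 15.5 to 18.0% of counts. The defining genes of ventricular myocytes (Myh6, Tnnt2, Actc1, Myl2, Myl3, Tnni3, Ryr2 and Pln) were abundant in every library, with a summed level of 38899.9 to 41326 CPM above the gap and 42435 to 50508 CPM below it.

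Expression was regressed on the index in the 8 WT animals with edgeR's quasi-likelihood test, leaving Nppa and Myh7 out. The slope is the log2 change in a gene's level per unit of the index. Since the animals formed clusters, a slope mostly compares the 3 animals above the gap with the other 5. The slopes and their p-values therefore do not show a graded relation. At an adjusted p under 0.05, 298 of 10960 tested genes (2.72%) followed the index, 223 rising (2.03%) and 75 falling (0.684%), and 1874 (17.1%) had an unadjusted p under 0.05. Rising genes had a median slope of 0.31 (range 0.15 to 1.62) and falling genes one of -0.27 (-0.87 to -0.15), against a median of 0.00 over all tested genes. Of the rising genes, 201 were higher in all 3 animals above the gap than in any of the other 5, and 67 of the falling genes were lower in all 3. The same held for 6.43% and 4.43% of all tested genes. Of the called genes, 17 rising and 3 falling ones averaged under 10 counts on their lower side of the gap and so met the count filter through the other side alone. Among the 10559 genes with an average of at least 10 counts on both sides, 206 rose (1.95%) and 72 fell (0.682%).

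The count changed when animals were left out or library measures were added to the fit. It was 190, 172, 185, 130 and 111 genes without replicate 3, 4, 5, 6 or 8, and 1 gene without all 3 animals above the gap. With the mitochondrial share as a second term edgeR called 0 genes (880 at an unadjusted p under 0.05). It called 109 with the library total, 123 with the level of the fibroblast markers and 1 with that of the activated fibroblast markers. Of these, 48, 93 and 0 were among the 298. All 298 genes kept the sign of their slope beside the mitochondrial share, and 287 did beside the activated fibroblast markers. Beside library total and mitochondrial share together 276 kept it. Without the 3 animals above the gap 238 of the 281 genes with a value did. Scaling by library size alone called 668 genes, 95.1% of them rising against 74.8% with TMM, and DESeq2 called 582, of which 60.7% rose. What part depth, mitochondrial share or other cells play in single genes was not tested.

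**Figure D2:**
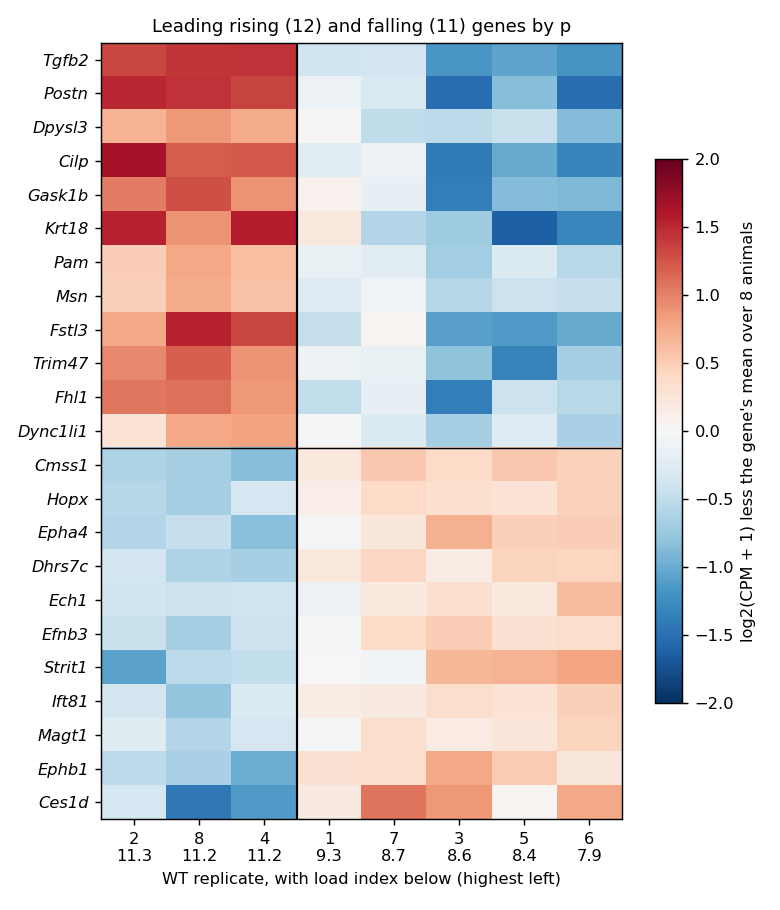
Heat map of the 12 rising genes with the smallest p-values and 11 of the 12 such falling genes (rows) in the 8 WT animals (columns, highest index left, index under each replicate number); colour is log2(CPM + 1) minus each gene's own average in these 8 animals. The vertical line marks the gap in the index between 11.18 and 9.29, where most rows change colour.

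Load-responsive myocyte genes other than the index genes rose in part: 8 of 27 tested members passed and none fell. Over all tested genes 2.03% rose and 0.684% fell. In this list 25 of 27 slopes were above 0 (median 0.17), as were 51.1% over all tested genes. Ankrd1, a titin-binding stress protein of the sarcomere that also enters the nucleus, was at 6363, 4539.8 and 5371 CPM above the gap and 3183, 3471, 1892, 2880.3 and 2258 CPM below it. Its groups did not overlap, and its slope was 0.38 (SE 0.06, adjusted p = 0.00333). Fhl1, a LIM protein that binds titin's stretch-sensing region, was at 379, 392 and 333 CPM against 129, 162, 69.4, 135 and 124 CPM, 2.93-fold higher between the medians (slope 0.56, SE 0.07, adjusted p = 0.00198). Synpo2l, a Z-disc protein, was at 161, 179.7 and 296 CPM against 77.3, 117, 85.3, 52.2 and 63.4 CPM (slope 0.53, SE 0.08, adjusted p = 0.00314). In each of these 3 genes the animals of the upper cluster stood above all 5 others, as in 201 of the 223 rising genes. Enah, an actin regulator of the intercalated disc, rose with a slope of 0.26 (SE 0.04, adjusted p = 0.00314), Des, the intermediate filament desmin, with one of 0.28, and Uchl1 and Ankrd23 passed as well.

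Xirp2, an actin-binding protein of the intercalated disc, was at 7366, 5059 and 9235 CPM above the gap and 4801, 5241, 2931, 3056 and 3595 CPM below it. Its slope of 0.34 (SE 0.07) passed with an adjusted p of 0.0187, although replicate 7 at 5241 CPM lay above replicate 8 at 5059. Not every classical marker followed the index. Nppb, the gene of brain natriuretic peptide, was at 584, 1012 and 1019 CPM above the gap and 506, 735, 562, 519 and 637 CPM below it; replicate 2, which had the highest index, lay below replicates 7 and 6, and the slope of 0.18 (SE 0.07) had an adjusted p of 0.165. Acta1, skeletal alpha actin, was at 4257, 1658.3 and 2221 CPM against 2844, 2565, 703, 1847 and 1593 CPM, with overlapping groups (slope 0.24, SE 0.12, adjusted p = 0.345).

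The partner of Myh7, Myh6, did not pass: it was at 17523, 13593 and 14888 CPM above the gap and 15524, 20381, 17764, 16138 and 16977 CPM below it (slope -0.06, SE 0.05, adjusted p = 0.527). The pair are close relatives in sequence, and how reads shared between them were divided is not given in the sources used here. Of 24 sarcomere genes tested, Mybpc3 rose (slope 0.19, adjusted p = 0.0295) and Tnni3 fell, where 2.03% and 0.684% of all tested genes did. The list's median slope was -0.01 and turned to 0.05 by library size alone. Tnni3, cardiac troponin I, was at 2598, 2530.5 and 2699 CPM against 3404, 3754, 3595, 3389 and 3916 CPM (slope -0.17, SE 0.04, adjusted p = 0.0248), so every animal above the gap was lower than every animal below it. All 8 ventricular myocyte genes had slopes below 0 (median -0.08; 6 of 8 by library size alone), and Tnni3 was the 1 member that passed.

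**Figure D3:**
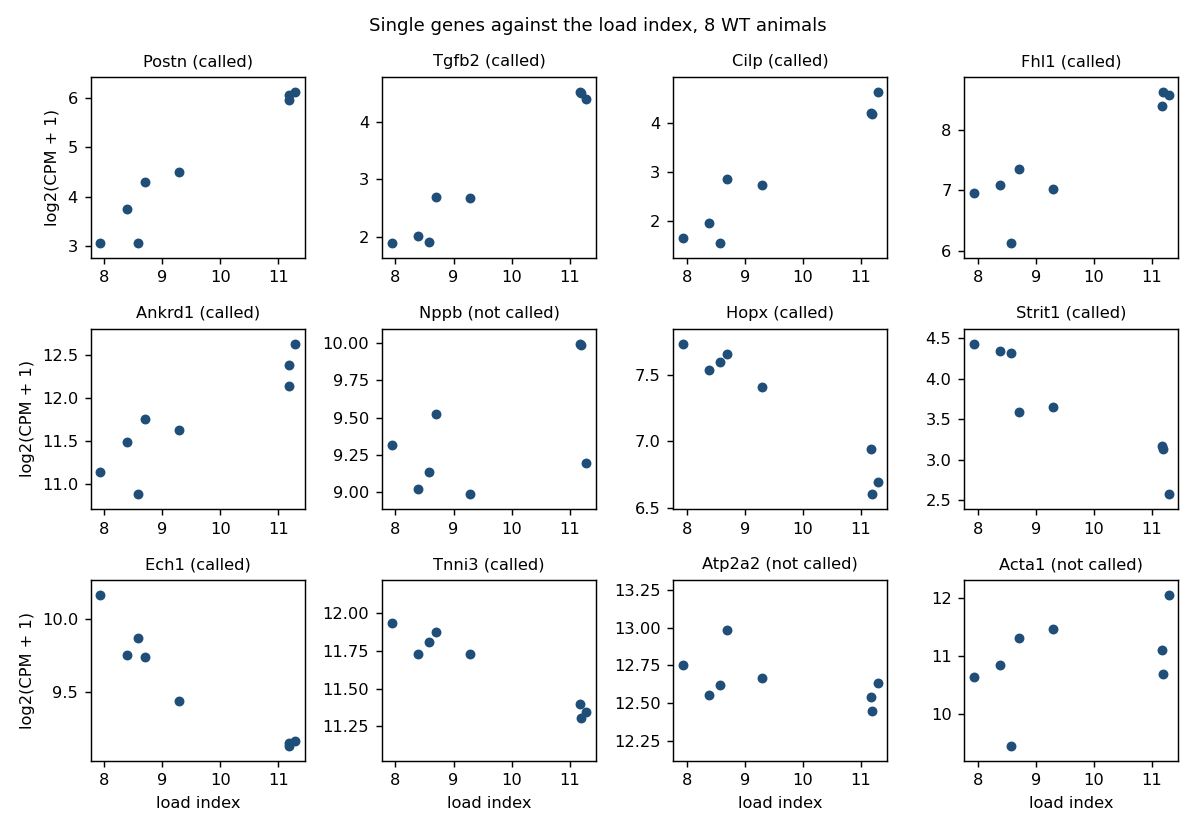
Levels of 12 single genes (log2(CPM + 1), vertical, axis ranges differ between panels) against the load index (horizontal) in 8 WT animals; each point is 1 animal and the panel title says whether the slope passed an adjusted p of 0.05. Postn, Tgfb2, Cilp, Fhl1 and Ankrd1 are higher and Hopx, Strit1, Ech1 and Tnni3 lower in all 3 animals above the gap, while Nppb, Atp2a2 and Acta1 overlap.

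Extracellular matrix genes gave more calls than any other list examined: 17 of 43 tested members rose, none fell, and 39 slopes were above 0 (median 0.34). Eln, Lox and Comp averaged 2.8, 3.6 and 4 counts below the gap and met the count filter only through the 3 animals in which they were high, so their calls are not counted as support. That left 14 of 39 members, against 1.95% of all genes with an average of at least 10 counts on both sides. Postn, the matricellular protein periostin of remodelling hearts, was at 68.4, 65.4 and 61.4 CPM above the gap and 21.5, 18.6, 7.43, 12.6 and 7.43 CPM below it. That is 5.21-fold between the medians, and the slope was 0.90 (SE 0.07, adjusted p = 1.01e-05). Cilp, a matrix protein of scarred myocardium, was at 23.8, 17.2 and 17.4 CPM against 5.71, 6.31, 1.94, 2.92 and 2.14 CPM (slope 0.94, SE 0.09, adjusted p = 0.000132). For both genes replicates 1 and 7 were the highest of the lower cluster, as they were for the index. How many other genes had this order was not counted. Without the animals above the gap 1 gene was called, which was not among the 298. The fibrillar collagens Col3a1 and Col5a2, the network collagen Col8a1, the basement membrane chains Col4a1 and Col4a2, fibronectin (Fn1), fibrillin (Fbn1), Sparc, Thbs4, biglycan (Bgn) and Ccdc80 were among the rest. Col8a1 was at 18.6, 13.8 and 13.2 CPM against 7.92, 7.88, 2.63, 3.55 and 3.14 CPM (slope 0.66, SE 0.10, adjusted p = 0.00259). Col1a1, the main chain of type I collagen, did not pass: it was at 7.67, 4.01 and 4.50 CPM against 2.91, 4.59, 1.94, 1.90 and 0.29 CPM (slope 0.54, SE 0.16, adjusted p = 0.0894).

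Many of these genes are products of fibroblasts, and the markers of that cell type moved with the index unevenly. Markers of activated fibroblasts, a list that shares Postn, Cilp, Comp and Thbs4 with the matrix list, summed to 111 to 134 CPM above the gap and 30.3 to 57.3 CPM below it, and 4 of 6 tested members rose, or 3 of 4 with an average of at least 10 counts on both sides of the gap; Cthrc1 and Fap were too low to be tested. Of 9 tested markers of resting fibroblasts, which include Pdgfra, Dcn, Dpt and Gsn, none passed, and their sum was 101 to 157 CPM above and 68.3 to 139 CPM below. Their median slope was 0.23 and 6 of 9 slopes were above 0: Col1a1 (0.54), Mfap5 (0.53), Col1a2 (0.39), Lum (0.29), Pi16 (0.23) and Dcn (0.21). Those of Pdgfra (0.00), Dpt (-0.01) and Gsn (-0.02) were at or just below 0, and Tcf21, not tested, had a median of 0 CPM in both clusters. In such bulk samples fewer cells of a type and less RNA per cell cannot be told apart, and the part of fibroblasts in the matrix genes was not tested. Endothelial markers summed to 161 to 182 CPM and 129 to 182 CPM, with Vwf the 1 of 10 that rose, and markers of pericytes and smooth muscle to 101 to 163 and 90.4 to 121 CPM, with Cspg4 the 1 of 8 that rose. Over all tested genes 2.03% rose, so nothing is read from these single calls. The 3 tested leukocyte markers had slopes below 0 and none passed, at sums of 6.597 to 8.13 and 4.23 to 16.5 CPM. Sums of Schwann, red cell and mesothelial markers reached at most 3.63 CPM.

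Secreted growth and stress factors rose in 5 of 24 tested members and fell in none, with a median slope of 0.18. With an average of at least 10 counts on both sides of the gap 4 of 21 rose, against 1.95% of all such genes. Tgfb2, a ligand of the transforming growth factor beta receptors, had the smallest p-value of all tested genes. It was at 20.1, 21.6 and 21.8 CPM above the gap and 5.36, 5.45, 2.74, 3.04 and 2.71 CPM below it, 7.10-fold between the medians (slope 0.94, SE 0.07, adjusted p = 1.01e-05). Fstl3, a secreted binder and inhibitor of activin and myostatin, was at 11.1, 19.9 and 17.2 CPM against 4.19, 6.45, 2.40, 2.28 and 2.57 CPM (slope 0.83, SE 0.11, adjusted p = 0.00141). Both genes were higher in every animal of the upper cluster, as were 201 of the 223 rising genes. Ltbp2, a matrix protein of the latent TGF-beta binding family, rose with a slope of 0.78 (SE 0.14, adjusted p = 0.00781), and Fstl1, a secreted follistatin-like glycoprotein, also passed. Nrg1, the ErbB ligand neuregulin, was at 1.32, 1.91 and 3.11 CPM against 0.47, 0.14, 0.23, 0.25 and 0 CPM. It averaged 1.8 counts below the gap and met the count filter only through the upper animals, so its test is not given. In the lower cluster 3 counts correspond to 0.34 to 0.43 CPM, so 4 of its 5 animals were under that floor and no fold is given.

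Lists of signalling genes inside the myocyte held 1 or 2 rising members each, within 2 genes of what the 2.03% of all tested genes that rose would give, so the genes are described singly and nothing is read from these counts. Of 36 tested genes of hypertrophic signalling, Dusp4, a phosphatase that switches off MAP kinases, and Igf1r, the receptor of insulin-like growth factor 1, rose. Dusp4 was at 2.72, 7.55 and 4.58 CPM above the gap and 1.16, 0.72, 0.69, 0.63 and 0.29 CPM below it. It averaged 5.6 counts below the gap and met the count filter only through the upper animals, so its test is not given. That left Igf1r, 1 of 35 members with an average of at least 10 counts on both sides. Of 22 tested beta-adrenergic and cAMP genes, Prkar1a, a regulatory subunit of protein kinase A, rose from 388 to 540.2 CPM in the lower cluster to 615 to 1042 CPM in the upper (slope 0.35, SE 0.05, adjusted p = 0.00314). Of 14 nitric oxide and natriuretic receptor genes, Npr3, the receptor that clears natriuretic peptides, rose: it was at 26.1, 34.3 and 20.4 CPM against 13.3, 7.74, 7.43, 15.6 and 9.14 CPM (slope 0.49, SE 0.09, adjusted p = 0.00833). Its 3 upper animals all lay above the other 5, as in 201 of the 223 rising genes. Among 38 genes of microtubules, discs and costameres, Kif5b, a kinesin motor, and Pkp2, the desmosomal plakophilin, rose with slopes of 0.28 and 0.15. Gpx3, a secreted glutathione peroxidase, was the 1 of 26 antioxidant genes that passed (slope 0.34).

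Of 44 tested genes of fatty acid use 3 fell and none rose, where 0.684% and 2.03% of all tested genes did. In this list 36 slopes were below 0 with a median of -0.06. Scaled by library size alone, 25 slopes were below 0 with a median of -0.01. Acaa2, the last enzyme of the mitochondrial beta-oxidation cycle, was at 328, 291 and 268 CPM above the gap and 340.0, 497, 441, 437 and 536 CPM below it (slope -0.24, SE 0.04, adjusted p = 0.00929). Its upper cluster lay below every other animal, but replicate 1 at 340.0 CPM was close to replicate 2 at 328 CPM. Eci1, an enoyl-CoA isomerase, and Etfb, which passes electrons to the respiratory chain, fell with slopes of -0.16 and -0.21. Ech1, a related isomerase that the list did not hold, was at 569.6, 557 and 565 CPM against 692, 854, 936, 861 and 1149 CPM (slope -0.27, SE 0.04, adjusted p = 0.00294). Ppargc1a, a coactivator of mitochondrial genes, was at 78.0, 89.2 and 83.5 CPM against 107, 69.9, 84.9, 65.4 and 90.3 CPM and did not pass (slope 0.02, adjusted p = 0.911), nor did Ucp2, an uncoupling protein (slope -0.09, adjusted p = 0.743).

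Nuclear genes of the respiratory chain and ATP synthase had 34 of 37 slopes below 0 (median -0.09; 27 and -0.04 by library size alone), and 1 passed: Cox7a1, a heart and muscle subunit of cytochrome oxidase, at 354, 324 and 386 CPM against 535, 556, 484, 518 and 538 CPM (slope -0.20, SE 0.04, adjusted p = 0.0179). None of 25 citric acid cycle genes passed, with 21 slopes below 0 and a median of -0.05, which became 12 slopes below 0 and a median of 0.00 by library size alone. Over all tested genes 2.72% were called, so nothing is read from the number of calls in either list. The 13 protein genes of the mitochondrial genome all had slopes below 0 (median -0.23). Of these mt-Nd1, mt-Nd2, mt-Nd3, mt-Atp6 and mt-Atp8 fell, where 0.684% of all tested genes did. mt-Nd3 was at 1147, 1326 and 1484 CPM above the gap and 2232, 1708, 2184, 2046 and 2136 CPM below it (slope -0.23, SE 0.05, adjusted p = 0.0243). These transcripts make up the mitochondrial share of the libraries given above, and some slopes turned their sign under single alternatives: mt-Nd3 had a slope of 0.02 over the 5 animals below the gap, mt-Nd1 one of 0.17 beside the library total and mitochondrial share, and mt-Atp6 one of 0.00 beside the activated fibroblast markers.

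Genes of glucose use rose in 4 of 29 tested members and fell in none, where 2.03% and 0.684% of all tested genes did. Hk1, the hexokinase isoform that dominates in the fetal heart, was at 127, 124 and 101 CPM above the gap and 75.1, 91.6, 80.7, 78.6 and 62.0 CPM below it (slope 0.23, SE 0.04, adjusted p = 0.0150). Pfkp, a phosphofructokinase isoform, was at 83.7, 142 and 84.4 CPM against 54.9, 61.8, 40.2, 48.7 and 62.3 CPM (slope 0.33, SE 0.07, adjusted p = 0.0248). Eno1, an enolase, and Pygb, a glycogen phosphorylase, rose with slopes of 0.18 and 0.16. All 4 genes were higher in each of the 3 upper animals than in any other, as were 201 of the 223 rising genes. The list's median slope was 0.04, and Slc2a1, the insulin-independent glucose transporter, did not pass (slope 0.26, adjusted p = 0.0511).

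Calcium handling showed no call in 21 tested genes, where 2.72% of all tested genes were called, so nothing is read from this count. The median slope was -0.02 and turned to 0.03 by library size alone. Atp2a2, the calcium pump SERCA2 of the sarcoplasmic reticulum, was at 6363, 5596 and 5965 CPM above the gap and 6509, 8091, 6294, 6021 and 6893 CPM below it (slope -0.06, SE 0.04, adjusted p = 0.521). Strit1, which encodes DWORF, a small peptide that enhances this pump, was not on that list and did fall: it was at 4.95, 7.74 and 7.96 CPM against 11.5, 11.04, 18.9, 19.3 and 20.6 CPM (slope -0.48, SE 0.07, adjusted p = 0.00314). Pln, the pump's inhibitor phospholamban, had a slope of -0.10 and did not pass (adjusted p = 0.193). Of 25 ion channel and pump genes 3 rose and 1 fell, against 2.03% and 0.684% of all tested genes. Atp1b1, a subunit of the sodium pump, rose with a slope of 0.19 (SE 0.04, adjusted p = 0.0253). Kcnj3, a subunit of the acetylcholine-gated potassium channel, fell (slope -0.26, SE 0.05, adjusted p = 0.00973).

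Several genes outside these lists had the smallest p-values. Dpysl3, a cytoskeletal protein of growing neurites and regenerating muscle, was at 47.3, 53.1 and 48.9 CPM above the gap and 29.2, 19.9, 19.8, 20.9 and 15.3 CPM below it (slope 0.49, SE 0.04, adjusted p = 5.07e-05). Krt18, a keratin, was at 10.2, 6.21 and 10.5 CPM against 3.49, 1.58, 1.37, 0.25 and 0.57 CPM (slope 1.10, SE 0.13, adjusted p = 0.00130). Pam, the enzyme that amidates peptide hormones and sits in the granules that store atrial natriuretic peptide, was at 1598, 1955 and 1725 CPM against 1044, 986, 707, 944 and 775 CPM (slope 0.37, SE 0.05, adjusted p = 0.00130). In all 3 genes the clusters were apart, as in 201 of the 223 rising genes. Gask1b, a Golgi kinase, Msn, the membrane and actin linker moesin, Trim47, a ubiquitin ligase, and Dync1li1, a dynein subunit, completed the leading risers, with slopes of 0.68, 0.36, 0.71 and 0.38.

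Among the falling genes, Cmss1 had the smallest p-value, at 9.90, 9.56 and 8.30 CPM above the gap and 18.4, 23.2, 20.9, 23.3 and 22.1 CPM below it (slope -0.44, SE 0.06, adjusted p = 0.00130). Hopx, a homeodomain protein without DNA binding that restrains serum response factor, was at 103, 96.2 and 122 CPM against 169, 201, 193, 185 and 212 CPM (slope -0.31, SE 0.04, adjusted p = 0.00150). The upper cluster was lower throughout in both, as in 67 of the 75 falling genes. Genes of Eph signalling, in which neighbouring cells touch through receptors and membrane-bound ephrins, were a grouping made after the values were seen. The receptors Epha4 and Ephb1 fell with slopes of -0.39 and -0.46, and the ligand Efnb3 with one of -0.31 (adjusted p = 0.00174, 0.00896 and 0.00294). Other Eph and ephrin genes were not counted, so nothing is read about this signalling as a whole. Epha4 was at 28.9, 31.5 and 24.0 CPM against 42.4, 51.0, 72.0, 61.1 and 62.0 CPM, and its upper animals were below all others. Dhrs7c, a dehydrogenase of the sarcoplasmic reticulum, Magt1, a magnesium transport and glycosylation protein, Ift81, of cilium transport, and Ces1d, a lipid hydrolase, were also among the 12, with slopes of -0.33, -0.25, -0.28 and -0.56.

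None of 24 tested stress response genes rose with the index, where 2.03% of all tested genes did. Hspa5 and Hsp90b1, chaperones of the endoplasmic reticulum, fell, where 0.684% of all tested genes did. Hspa5 was at 353, 405 and 394 CPM against 430.1, 541, 562, 466 and 605 CPM (slope -0.18, SE 0.04, adjusted p = 0.0312). The lists of muscle ubiquitin ligases and autophagy, the creatine shuttle, the circadian clock, immediate early genes, cytosolic ribosomal proteins and the renin-angiotensin system had 0 calls among 25, 14, 15, 18, 22 and 4 tested members by edgeR, with median slopes between -0.04 and 0.11; those of the creatine, circadian and ribosomal lists turned from below to above 0 by library size alone. Over all tested genes 2.72% were called, so nothing is read from these counts of 0. These lists were described by counts alone and not tested as sets.

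**Figure D4:**
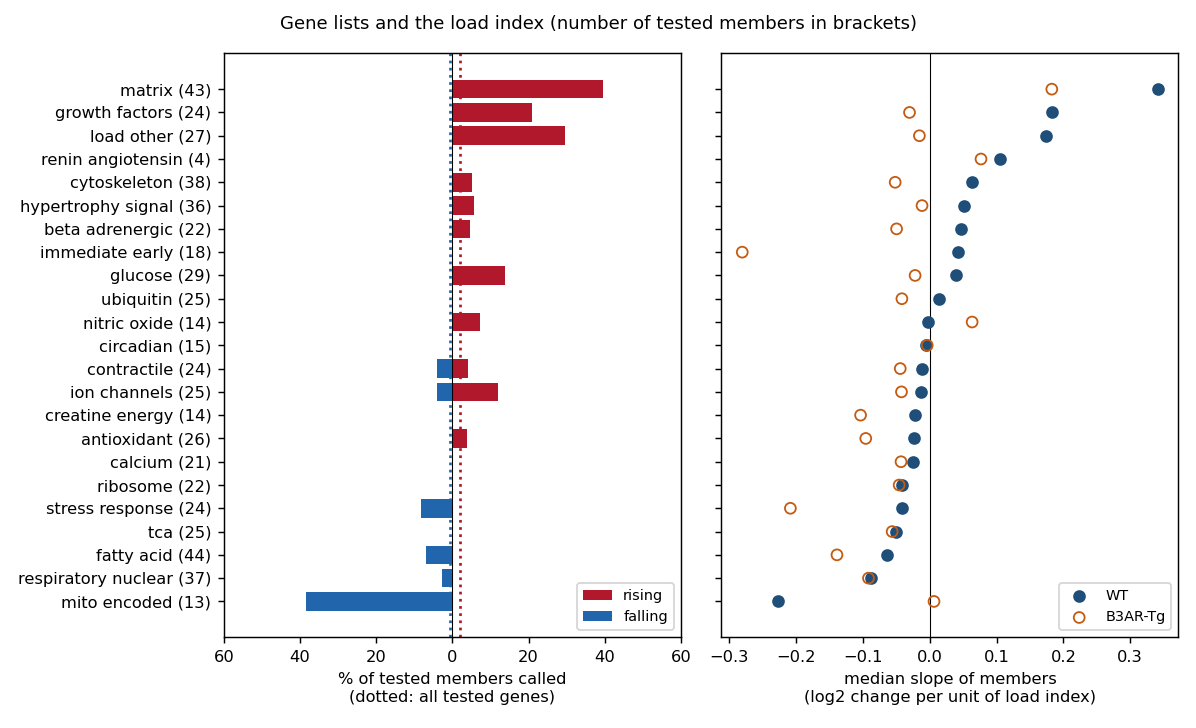
Left, percentage of each list's tested members that rose (red) or fell (blue) with the load index in 8 WT animals, with dotted lines at the share over all tested genes, 2.03% and 0.684%; right, the median slope of the members in WT (filled) and B3AR-Tg (open). Lists are ordered by WT median, and lists of cell type markers are not plotted. Of those plotted, matrix genes stand at the top (17 of 43 rose) and mitochondrially encoded genes at the bottom (5 of 13 fell). Bars count every tested member, also Eln, Lox, Comp, Nrg1 and Dusp4, which met the count filter only through the upper animals. With an average of at least 10 counts on both sides of the gap, 14 of 39 matrix members rose. The B3AR-Tg medians rest on replicate 7, as the text gives.

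The 8 B3AR-Tg animals share no animal with the WT fit, so the WT calls were read there with the same index, and what was found rested on 1 animal. The B3AR-Tg fit alone called 0 of 10960 genes by edgeR, with 194 rising (1.77%) and 318 falling (2.90%) at an unadjusted p under 0.05, and DESeq2 called 8. Of the 223 genes rising in WT, 183 (82.1%) had a slope above 0 in B3AR-Tg, where 48.3% of all tested genes did, and of the 75 falling genes 62 (82.7%) had a slope below 0, where 51.7% did. Without replicate 7, the animal that stood apart on the index, 91 rising genes (40.8%) had a slope above 0, where 51.1% of all tested genes did, and 25 falling genes (33.3%) one below 0, where 48.9% did. Leaving out any other B3AR-Tg animal gave 171 to 190 and 60 to 66. The agreement in sign thus rested on replicate 7; the index of the other 7 animals ran from 5.89 to 7.24.

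The median B3AR-Tg slopes of the rising and falling genes were 0.12 and -0.09 with all 8 animals and -0.07 and 0.05 without replicate 7. The WT medians of 0.31 and -0.27 are of genes selected for their WT slope, so the sizes are not compared. The typical standard error was 0.07 in WT, 0.13 in B3AR-Tg and 0.23 in B3AR-Tg without replicate 7. At an unadjusted p under 0.05, 33 of the rising and 10 of the falling genes moved the same way in B3AR-Tg, which became 1 and 0 without that animal. Rising genes with a B3AR-Tg slope below 0 at such a p numbered 4 with all 8 animals and 19 without replicate 7. The 19 included Enah, Synpo2l, Xirp2 and Fhl1 of the load-responsive list, with slopes of -0.92, -1.01, -0.90 and -0.72.

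Single genes followed this pattern in part, and some kept the sign of their slope without replicate 7. The B3AR-Tg slope of Postn was 0.98 (SE 0.26, unadjusted p = 0.00237) with all animals and -0.11 without replicate 7 (unadjusted p = 0.828). That of Cilp was 1.55 (unadjusted p = 0.00138) and then 1.29 (unadjusted p = 0.182), and that of Ltbp2 0.77 (unadjusted p = 0.0246) and then 0.91 (unadjusted p = 0.215). Dpysl3 went from 0.60 to -0.02, Ech1 from -0.35 to 0.06 and Strit1 from -0.35 to 0.10. Of the 43 matrix genes 31 had slopes above 0 with a median of 0.18, and without replicate 7 14 did, with a median of -0.20. The load-responsive list, at a median of 0.17 in WT, had one of -0.02 and then -0.29 in B3AR-Tg, and the mitochondrially encoded genes, at -0.23 in WT, had one of 0.01 and then -0.05.

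Whether a slope differed between genotypes was tested by the interaction of genotype with the index over all 16 animals. No gene passed by edgeR at an adjusted p under 0.05, and 542 (4.95%) had an unadjusted p under 0.05, but without B3AR-Tg replicate 7 the count was 36, of which 34 had the lower slope in B3AR-Tg. With all animals, a slope called in WT and not in B3AR-Tg is not shown to differ between them. For Tgfb2 the B3AR-Tg slope was 0.20 and the difference -0.74 (B3AR-Tg less WT, unadjusted p = 0.0038, adjusted p = 0.658), and without replicate 7 the B3AR-Tg slope was -0.92. The B3AR-Tg index also moved with atrial markers: 6 of 6 tested (Sln, Myl7, Myl4, Dkk3, Stard10 and Mybphl) had slopes above 0 there, with a median of 0.99, or 2.29 without replicate 7, against 3 of 6 and a median of 0.03 in WT, and their part in the B3AR-Tg slopes was not tested. In WT their sum was 26.5 to 79.7 CPM above the gap and 31.7 to 100.2 CPM below it.

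**Figure D5:**
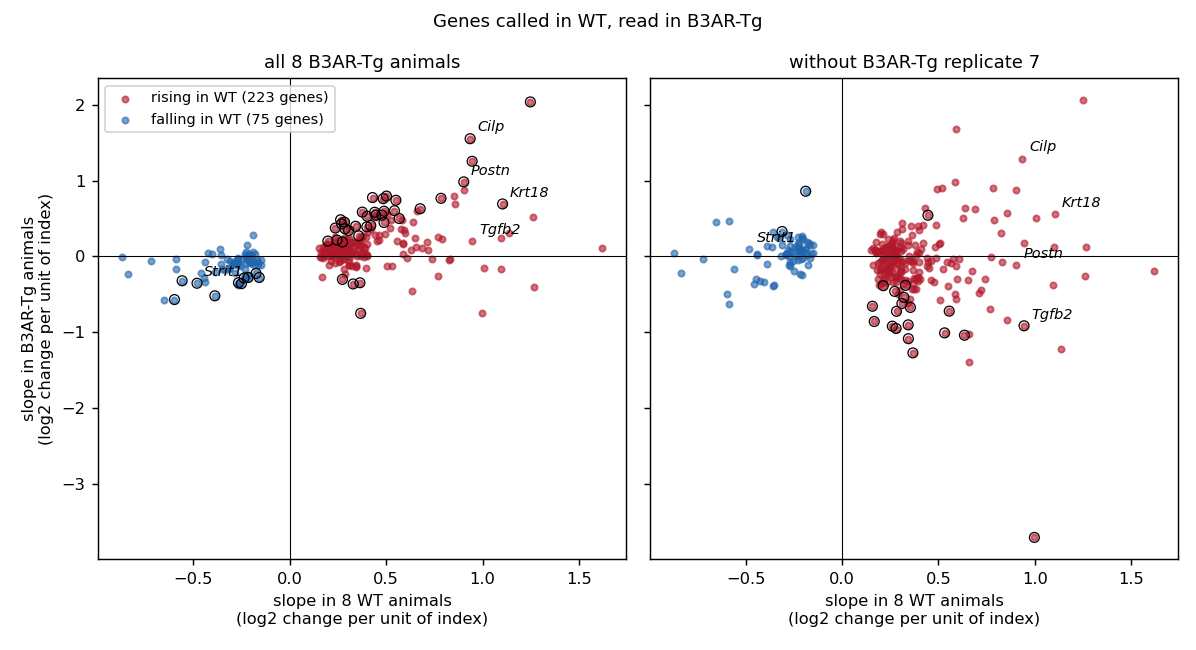
Slope on the load index in 8 WT animals (horizontal) and in B3AR-Tg animals (vertical), both in log2 change per unit of index, for the 298 genes called in WT, with all 8 B3AR-Tg animals (left) and without replicate 7 (right); each point is 1 gene and black rings mark an unadjusted p under 0.05 in B3AR-Tg. Of the 223 rising genes 183 lie above 0 on the left and 91 on the right, and of the 75 falling genes 62 and 25 lie below it.

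The 4 highest and 4 lowest WT animals were also set side by side, with no test since the order was measured. In 383 genes (3.49%) all 4 of the highest animals exceeded all 4 of the lowest, and in 297 (2.71%) they were all below. Of the 223 genes that rose with the index 95 separated in this way, and of the 75 that fell 38. Postn separated at 4 and 4, with medians of 63.4 CPM in the highest animals and 9.99 CPM in the lowest, while Tgfb2 did not, since replicate 7 at 5.45 CPM stood just above replicate 1 at 5.36.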

How the data were processed

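The authors deposited 1 table of estimated counts per gene, made from the reads before deposit, with a column for each of 16 animals, 35682 rows named by Ensembl ID and symbol; per the submitters' processing notes Salmon and GRCm39 were used, with no version or role given. The deposited estimated counts are whole numbers with no scaling between libraries, so they were used as they stand. Whether counting used the strand of the kit is not given in the sources used here. Columns were matched to animals by the names in the labels.

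CPM were scaled with TMM factors of edgeR 4.0.16 (R 4.3.3) over the 8 WT libraries, and the load index is the mean of log2(CPM + 1) of Nppa and Myh7. Genes with a mean count of at least 10 over the WT animals (10960) were tested with edgeR's quasi-likelihood F test of the slope on the index, two-sided, with Benjamini-Hochberg adjustment over all of them and a threshold of 0.05; the standard error is the slope divided by the square root of F. The same genes were fitted in B3AR-Tg, on an index scaled within that genotype, and for the interaction over all 16 animals. Library totals ran from 6926821 to 11584656 counts in WT and from 5985335 to 14365864 in B3AR-Tg; 3 counts were worth 0.247 to 0.430 CPM in WT, a floor for counting error only. Scripts were tested on simulated data. Alternatives covered scaling, filters, DESeq2 1.42.0, limma 3.58.1 voom, other forms of the index, covariates and leaving out animals. Replicates of each genotype differed by more than sampling noise in all 56 pairs (chi-square per gene of at least 6.24).

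Named genes were the 12 risers and 12 fallers of smallest p, up to 4 called members per list by p, and Nppb, Acta1, Ankrd1, Xirp2, Myh6, Atp2a2, Postn, Col1a1, Ppargc1a and Ucp2; other names were chosen after their values were seen. Some genes the rule covers are not reported here. The animals, the index, the lists and the tests were chosen with earlier results of these data known. Promoters are RefSeq windows on GRCm38.p6 and carry no coordinates of the build of the counts.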

Additional observations from a re-analysis of the deposited data

How the results depend on the processing

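The count of genes following the index in WT, 298, stayed within 1.5 times of that value under RLE and upper quartile scaling, TMM over all 16 libraries, 3 other low-count filters, voom, an index from Nppa alone or from z scores, a pseudocount of 0.1, removal of mitochondrial genes and Gm20594, a leukocyte covariate and thinning to the smallest library, between 261 and 372. It was 668 by library size only, 582 with DESeq2, 177 with Myh7 alone, 93 with the rank of the index, 123, 105, 0 and 109 with fibroblast markers, endothelial markers, mitochondrial share or library total as a covariate (880 genes kept an unadjusted p under 0.05 beside the mitochondrial share), 97 without the 2 animals farthest from the median index, and 84 and 610 at adjusted p thresholds of 0.01 and 0.1. Of the genes called with fibroblast markers, endothelial markers or library total as a covariate, 93, 90 and 48 were among the 298. Alternatives chosen after the data were seen gave 1 without the 3 animals above the gap, 1 with activated fibroblast markers and 11 with library total and mitochondrial share together. Of these, 0, 0 and 3 were among the 298. Leaving out single WT animals gave 111 to 385. Library size only moved the median slope of all genes from 0.00 to 0.05. The causes of these moves were not tested, beyond fewer animals or another threshold where that is what was changed.

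Of 60 named genes that passed, 54 kept their sign under every alternative that gave them a value; 51 of the 60 had a value under all 35, of which 48 kept their sign, and Nrg1 had the fewest, 27. Without the 3 animals above the gap the slope was -0.45 for Vwf, -0.083 for Pfkp, 0.017 for mt-Nd3 and 0.00030 for mt-Nd1. With activated fibroblast markers it was 0.0049 for mt-Atp6. With library total and mitochondrial share it was -0.071 for Xirp2 and 0.17 for mt-Nd1. The cause was not tested.

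The 680 genes separating the 4 highest from the 4 lowest animals became 432 when Myh7 alone ordered them. The B3AR-Tg fit gave 0 to 1 gene without single animals (1 without replicate 7) and 8 with DESeq2. Chosen after the data were seen, leaving out single B3AR-Tg animals gave 91 to 190 of the genes rising in WT and 25 to 66 of those falling with the same sign in B3AR-Tg, both lowest without replicate 7. The interaction gave 0 to 1 gene without single WT animals (1 without replicate 2), 0 to 36 without single B3AR-Tg animals (36 without replicate 7) and 0 with the replicate block (379 at an unadjusted p under 0.05). The replicate numbers do not pair the genotypes: correlations of deviations between same-numbered animals ran from -0.27 to 0.10, and no animal correlated best with its own number. Correlations with the index, in Pearson, Spearman and exact permutation form and for library measures, were not run because the animals fell into clusters of 3 and 5. Depth limits low genes such as Nrg1 to a few counts per library.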

Other observations

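Further genes that passed in WT, chosen after their values were seen, belong to groups the lists did not hold. Smad7 and Smad6, intracellular inhibitors of TGF-beta family signalling, rose with slopes of 0.45 (SE 0.06, adjusted p = 0.00229) and 0.52 (SE 0.12, adjusted p = 0.0287), with medians of 17.0 and 5.195 CPM above the gap and 8.00 and 2.51 CPM below it. The matrix proteoglycan Aspn and the calcification inhibitor Mgp rose with slopes of 0.60 and 0.46, and the intermediate filament Vim with one of 0.37. Nmrk2, a nicotinamide riboside kinase of muscle, had medians of 35.3 and 8.80 CPM (slope 1.10, SE 0.22, adjusted p = 0.0159), and Neb, the thin filament ruler nebulin of skeletal muscle, medians of 112 and 39.8 CPM (slope 0.64, SE 0.13, adjusted p = 0.0195). Apln, the peptide apelin, fell with a slope of -0.84 (adjusted p = 0.0248) from a median of 4.72 CPM below the gap to 1.43 CPM above it, and Fbp2, the muscle fructose bisphosphatase, fell with one of -0.39 (adjusted p = 0.0259).

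In B3AR-Tg the slopes were 0.20 for Smad7, 0.37 for Smad6, 0.31 for Aspn and 0.29 for Mgp, all with an unadjusted p above 0.05; without replicate 7 they were -0.15, 0.91, -0.30 and -0.06. Nmrk2 and Neb had B3AR-Tg slopes of -0.16 and -0.46, with interaction adjusted p-values of 0.991 and 0.560, so with all animals a difference between genotypes is not shown. Without replicate 7 their B3AR-Tg slopes were 0.12 (unadjusted p = 0.862) and -1.04 (unadjusted p = 0.0194). Masp1, a serine protease of the complement lectin pathway, had the smallest B3AR-Tg p-value of all genes called in WT, with slopes of 0.43 in WT and 0.78 in B3AR-Tg (unadjusted p = 7.7e-05, adjusted p = 0.334), and one of 0.64 without replicate 7 (unadjusted p = 0.0543).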
